A study of Mus musculus with 6 samples.

Results

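The transforming growth factors beta (TGF-beta) and activin A were followed across the tumour and its host: the human table rows TGFB1, TGFB2, TGFB3 and INHBA, and the mouse table rows Tgfb1, Tgfb2, Tgfb3, Inhba, Tgfbr1 and Tgfbr2. The genes were taken by symbol and not by their values. A row was found for 9 of the 10 genes, among 114420 named rows of both tables. No human row carries the symbol TGFB1, so human TGFB1 is not reported among them. All 9 rows passed the filter on low counts and were tested. The RNA came from tumours that the established cell line DU145, from a human prostate cancer, formed under the skin of male nude mice, and each tumour was read in a human table, for the cancer cells, and in a mouse table, for the host. The Zelnorm group had 3 tumours from mice given Zelnorm (tegaserod, an agonist of a serotonin receptor) by mouth every day, and the control group had 3 tumours. Sample titles carry MBZ for the treated group, with no expansion of those letters, and the labels state no dose and no treatment of the controls. Both groups thus share the cell line, the site of growth and a host that lacks a thymus and with it most T cells. The labels name separate tumours but no animals, so a p-value measures only the spread between these samples, which may be technical.

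TGF-beta 1, 2 and 3 are secreted in a latent complex and, once freed, bind the receptor TGFBR2, which recruits and activates the kinase TGFBR1. Activin A is a dimer of the inhibin beta A chain that INHBA encodes, and it acts through the activin receptors of types II and I. Both routes end in phosphorylation of SMAD2 and SMAD3. In tumours the pathway is known for slowing epithelial growth, for driving fibroblasts to make matrix and for damping immune cells.

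The human table held 24602178 to 36935816 counts per Zelnorm library and 25854118 to 39278195 per control library, and the mouse table held 5817165 to 9050985 per Zelnorm library and 6158251 to 9228446 per control library. Levels are given as CPM, counts scaled to a common library total within each table, so human and mouse levels are not on one scale. The human table held the markers of an epithelial line, with EPCAM at 363 to 437 CPM in Zelnorm tumours and 382 to 407 CPM in control tumours. The basal keratin KRT5 had 1 to 6 counts per library, and KLK3, which encodes the prostate-specific antigen, had 0 to 2. Of the T cell markers in the mouse table, Cd3e had 44, 0 and 3 counts in Zelnorm tumours and 0, 4 and 3 in control tumours, Foxp3 had 0 to 3 counts per library, and Cd4, which macrophages and other cells can also carry, had 163 to 403.

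The promoters of the host genes are shown because most of these genes fell into sets that varied together from tumour to tumour, described further on. Of the 6 mouse genes, 5 matched an entry in the RefSeq promoter table (GRCm38.p6), which spans 250 bases before to 50 bases after the start. Those of Inhba (chr13:16011601-16011900, plus strand), Tgfbr1 (chr4:47352972-47353271, plus strand) and Tgfb2 (chr1:186705940-186706239, minus strand) belong to 3 host genes that varied together. For Tgfbr1 the first of 2 entries is shown. That of Tgfb1 (chr7:25686752-25687051, plus strand) belongs to the gene with the steadiest level in the control tumours. The Tgfbr2 promoter also matched and is not shown. Capitals mark matches on either strand to the SMAD box CAGAC, the AP-1 site TGANTCA, the cyclic AMP response element TGACGTCA, the GC box GGGCGG and the TATA box TATAAA. No marked matches overlap.
Inhba: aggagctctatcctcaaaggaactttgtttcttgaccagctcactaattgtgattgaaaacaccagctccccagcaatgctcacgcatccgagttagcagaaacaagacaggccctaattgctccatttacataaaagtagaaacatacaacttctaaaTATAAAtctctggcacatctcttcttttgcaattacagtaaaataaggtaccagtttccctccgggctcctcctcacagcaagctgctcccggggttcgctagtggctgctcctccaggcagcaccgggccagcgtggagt
Tgfbr1: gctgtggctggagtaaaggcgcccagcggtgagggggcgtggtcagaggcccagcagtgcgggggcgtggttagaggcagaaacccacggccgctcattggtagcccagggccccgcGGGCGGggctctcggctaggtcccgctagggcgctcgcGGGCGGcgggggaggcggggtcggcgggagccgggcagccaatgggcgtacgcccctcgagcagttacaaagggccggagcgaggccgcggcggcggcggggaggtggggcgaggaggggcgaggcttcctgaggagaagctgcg
Tgfb2: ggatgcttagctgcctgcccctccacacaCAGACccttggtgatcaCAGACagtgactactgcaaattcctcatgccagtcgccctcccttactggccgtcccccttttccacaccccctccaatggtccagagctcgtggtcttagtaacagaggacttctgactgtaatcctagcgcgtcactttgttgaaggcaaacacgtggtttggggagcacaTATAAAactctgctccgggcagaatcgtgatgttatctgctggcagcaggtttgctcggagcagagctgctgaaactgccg
Tgfb1: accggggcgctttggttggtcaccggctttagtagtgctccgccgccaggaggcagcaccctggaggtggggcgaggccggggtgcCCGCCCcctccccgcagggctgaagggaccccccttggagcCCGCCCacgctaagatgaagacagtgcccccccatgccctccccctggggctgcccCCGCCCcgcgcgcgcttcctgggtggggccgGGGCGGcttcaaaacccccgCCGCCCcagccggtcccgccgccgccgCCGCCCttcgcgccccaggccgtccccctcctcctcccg

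The Tgfb1 promoter is 77.0% G and C and holds 6 GC boxes, and that of Tgfbr1 is 74.7% G and C with 2 GC boxes. By contrast the Inhba promoter is 47.7% G and C, and its single marked match is a TATA box at position -91 from the start. In the Tgfb2 promoter (54.3% G and C) a TATA box lies at position -31 and SMAD boxes lie at positions -221 and -204. The median over 32851 mouse promoters of the same length was 52.7% G and C. A GC box occurs in 35.7% of those promoters, a TATA box in 13.6%, a SMAD box in 49.6%, an AP-1 site in 7.81% and a cyclic AMP response element in 1.79%. No marked motif is common to all 3 genes that varied alike in the windows shown. A match describes the letters and is not a bound site.

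Among the ligands of the human table, none of the 3 rows passed the test between Zelnorm and control tumours, and the groups overlapped for each. With edgeR's quasi-likelihood test, 0 of 3 had an adjusted p under 0.05, against 0% of the 18820 human genes tested. An unadjusted p under 0.05 was found for none of the 3, against 1.31% of all human genes (247 genes). DESeq2 called 1 human gene and limma-voom 0, none of them a ligand of this set. Groups that did not overlap were seen for 0 of 3, against 4.82% of all human genes.

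TGFB2 (ENSG00000092969), a TGF-beta that needs a co-receptor to bind TGFBR2 well, had 38.2, 16.4 and 20.3 CPM in Zelnorm tumours and 37.2, 17.0 and 24.3 CPM in control tumours. Each group had 1 tumour near 38 CPM (MBZ_254 and NC10) and the other tumours below 25. Its mean was 25.0 ± 11.6 CPM in Zelnorm and 26.2 ± 10.2 CPM in control tumours (SD, n = 3 each), a log2 fold change of -0.07 (SE 0.34, edgeR adjusted p = 1.00). The sign turned when MBZ_257 (0.16), MBZ_259 (0.06) or NC10 (0.27) was left out. The estimated counts of TGFB2 and TGFB2-OT1, a transcript named after TGFB2, summed to whole numbers in every library, and TGFB2-OT1 took 6.62% to 12.7% of the sum. Added together, the 2 rows gave a log2 fold change of -0.10 (SE 0.32).

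TGFB3 (ENSG00000119699), a TGF-beta best known from palate fusion and from the mesenchyme, had 13.1, 7.20 and 13.8 CPM in Zelnorm tumours and 13.9, 17.7 and 10.2 CPM in control tumours. MBZ_257 was the lowest tumour and NC4 the highest, and the other 4 lay between them. The means were 11.4 ± 3.61 CPM in Zelnorm and 14.0 ± 3.75 CPM in control tumours (SD, n = 3 each), a log2 fold change of -0.30 (SE 0.27, edgeR adjusted p = 1.00). Without MBZ_257 and NC4, left out together after the data were seen, it was 0.16.

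INHBA (ENSG00000122641) had the fewest counts, with 98, 83 and 56 counts in Zelnorm tumours and 70, 35 and 86 counts in control tumours. These are 3.99, 2.56 and 1.55 CPM in Zelnorm tumours and 2.66, 1.35 and 2.16 CPM in control tumours, so the highest tumour was a Zelnorm and the lowest a control tumour, with overlap between. The log2 fold change of 0.38 (SE 0.37, edgeR adjusted p = 1.00) rested on MBZ_254: without it the value was -0.0052.

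**Figure D1:**
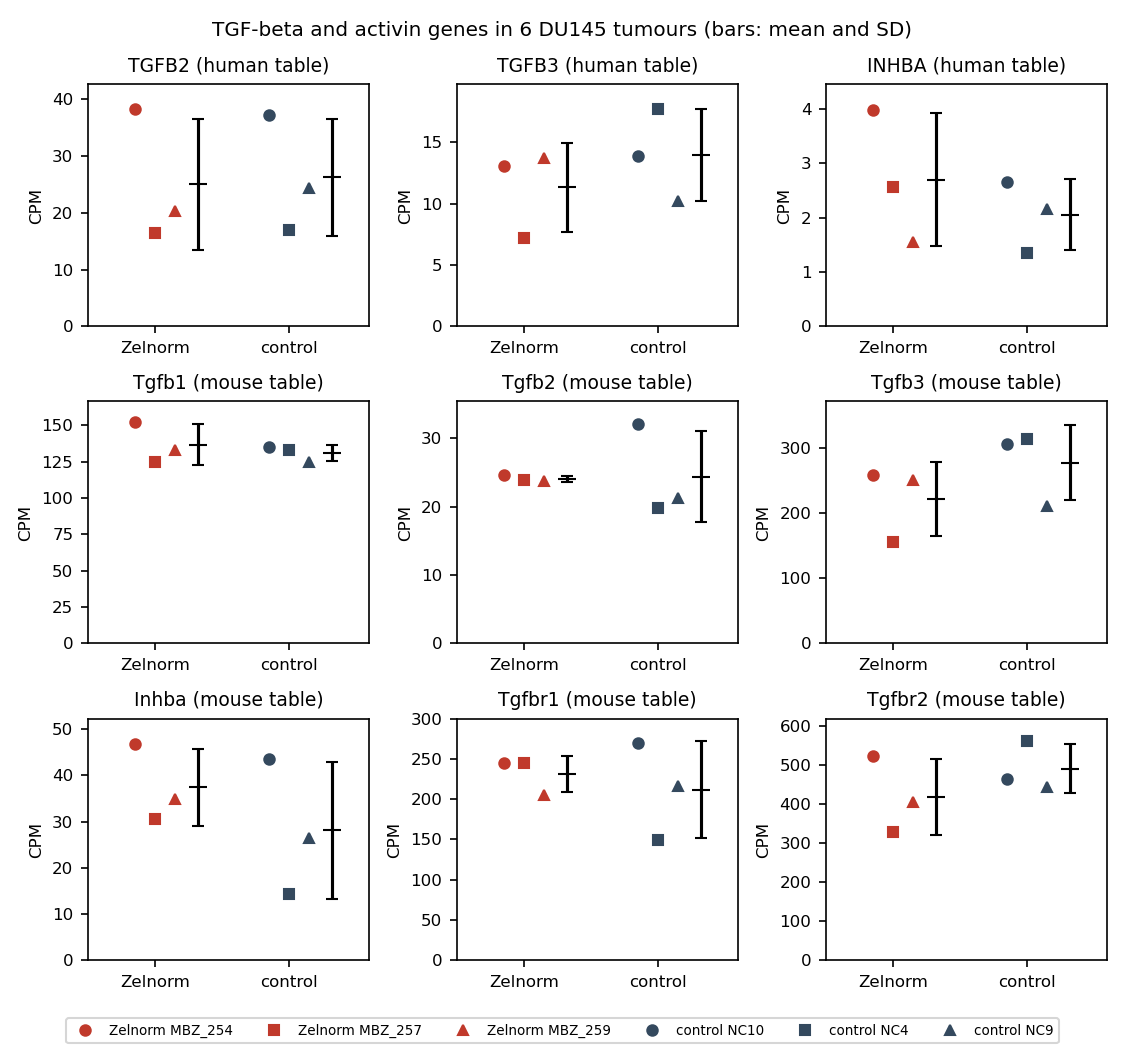
Levels of the 3 human and 6 mouse genes in CPM of their own table (vertical axes from 0), with a point per tumour, Zelnorm left of control, and bars for the mean and SD of 3 tumours. The groups overlap in each of the 9 panels; TGFB2 has a tumour near 38 CPM in both groups, and Tgfb1 stays between 125 and 152 CPM.

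Among the host's genes, none of the 6 mouse rows passed the test either, and the groups again overlapped for each. With edgeR's quasi-likelihood test 0 of 6 had an adjusted p under 0.05, against 0% of the 14459 mouse genes tested. No unadjusted p was under 0.05 for the 6, against 1.75% of all mouse genes (253 genes). DESeq2 called 6 mouse genes and limma-voom 0, and none of those was a gene of this set. Groups that did not overlap were seen for 0 of 6, against 5.52% of all mouse genes. In bulk tumours, fewer cells of a type and less RNA per cell cannot be told apart.

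Tgfb1 (ENSMUSG00000002603; GRCm38 chr7:25687002-25705077, plus strand), the main TGF-beta of immune cells and platelets, had 152, 125 and 133 CPM in Zelnorm tumours and 135, 133 and 125 CPM in control tumours. The tumours lay close together, and each group reached down to 125 CPM. Its mean was 137 ± 14.3 CPM in Zelnorm and 131 ± 5.61 CPM in control tumours (SD, n = 3 each), a log2 fold change of 0.06 (SE 0.15, edgeR adjusted p = 1.00). Without MBZ_254 the value was -0.03.

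Tgfb2 (ENSMUSG00000039239; chr1:186622792-186705989, minus strand), the host counterpart of TGFB2, had 24.6, 23.9 and 23.8 CPM in Zelnorm tumours and 32.1, 19.8 and 21.3 CPM in control tumours. The Zelnorm tumours were nearly level, inside the wider range of the control tumours. The means were 24.1 ± 0.479 CPM in Zelnorm and 24.4 ± 6.68 CPM in control tumours (SD, n = 3 each). The log2 fold change was -0.01 (SE 0.21, edgeR adjusted p = 1.00), and 0.21 without NC10 or 0.0077 without MBZ_257.

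Tgfb3 (ENSMUSG00000021253; chr12:86056745-86079041, minus strand) had 258, 155 and 250 CPM in Zelnorm tumours and 306, 314 and 210 CPM in control tumours. MBZ_257 was the lowest and NC4 the highest, the same tumours as for human TGFB3. The means were 221 ± 57.2 CPM in Zelnorm and 277 ± 57.6 CPM in control tumours (SD, n = 3 each), a log2 fold change of -0.32 (SE 0.25, edgeR adjusted p = 1.00). Leaving out MBZ_257 brought it to -0.11, and leaving out MBZ_257 and NC4 together to -0.0028. Ttll5, a gene on the opposite strand that overlaps it, had 259, 286 and 318 counts in Zelnorm tumours and 250, 281 and 371 counts in control tumours. The sources do not say whether the counting used strand, so reads of the overlap cannot be told apart.

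Inhba (ENSMUSG00000041324; chr13:16011851-16031621, plus strand) had 46.8, 30.5 and 34.9 CPM in Zelnorm tumours and 43.6, 14.3 and 26.5 CPM in control tumours. NC4 and NC9 lay under every Zelnorm tumour, while NC10 was the second highest of the 6. The means were 37.4 ± 8.40 CPM in Zelnorm and 28.1 ± 14.7 CPM in control tumours (SD, n = 3 each), a log2 fold change of 0.42 (SE 0.37, edgeR adjusted p = 1.00). It was 0.10 without NC4 and 0.86 without NC10, and without NC10 the unadjusted edgeR p was 0.032 with an adjusted p of 1.00.

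Both TGF-beta receptors were read in the host. Tgfbr1 (ENSMUSG00000007613; chr4:47353222-47414931, plus strand), the signalling kinase, had 244, 245 and 205 CPM in Zelnorm tumours and 270, 150 and 216 CPM in control tumours. The control tumours held both the highest and the lowest value, NC10 and NC4. Its log2 fold change was 0.13 (SE 0.23, edgeR adjusted p = 1.00), and -0.07 without NC4. Tgfbr2 (ENSMUSG00000032440; chr9:116084293-116175360, minus strand), the ligand-binding receptor, had 524, 329 and 406 CPM in Zelnorm tumours and 466, 562 and 445 CPM in control tumours. Here NC4 was the highest and MBZ_257 the lowest. The means were 419 ± 98.0 CPM in Zelnorm and 491 ± 62.6 CPM in control tumours (SD, n = 3 each), a log2 fold change of -0.23 (SE 0.21, edgeR adjusted p = 1.00), or 0.05 without NC4 and MBZ_257.

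Divided by the length of the gene's exons in GENCODE vM21, the host genes could be set in order. Tgfb3 was the highest, at 65.4 ± 16.9 CPM per kilobase in Zelnorm and 81.8 ± 17.0 in control tumours (SD, n = 3 each), followed by Tgfbr2 at a mean of 51.2 (range 40.2 to 64.0) in Zelnorm and 60.0 (range 54.3 to 68.7) in control tumours. Next came Tgfbr1 at 35.4 ± 3.49 in Zelnorm and 32.4 ± 9.19 in control tumours, and Tgfb1 at 27.1 ± 2.84 in Zelnorm and 26.0 ± 1.11 in control tumours. Inhba (4.78 to 7.32 in Zelnorm, 2.23 to 6.83 in control tumours) and Tgfb2 (4.16 ± 0.0827 in Zelnorm, 4.21 ± 1.15 in control tumours) closed the order. Over the 6 tumours the ranges of neighbours in this order overlapped, except that Tgfb1 lay above Inhba in each tumour with a gap between the ranges. Tgfb3 was above Tgfbr2, and Tgfbr2 above Tgfbr1, within each of the 6 tumours. In NC4, Tgfbr1 lay below Tgfb1 and Inhba below Tgfb2. Human genes were not ordered this way, because no human lengths were used.

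From tumour to tumour, 5 of the 6 host genes fell into 2 sets. Inhba and Tgfbr1 varied together (Pearson's r of log2 CPM 0.901 over the 6 tumours), as did Tgfb2 with Tgfbr1 (0.802) and with Inhba (0.778). Tgfb3 varied with Tgfbr2 (0.849), while its r was -0.11 with Inhba and -0.339 with Tgfbr1. Tgfb1 belonged to neither set, with an r of 0.607 with Tgfbr2, 0.531 with Tgfb3 and 0.46 with Inhba. In the human table TGFB2 and INHBA had an r of 0.715. No cutoff on r was set for the sets. Inhba, Tgfbr1 and Tgfb2 were each lowest in NC4 (14.3, 150 and 19.8 CPM). Tgfb3 and Tgfbr2 were each lowest in MBZ_257 and highest in NC4. These r values were not computed without those tumours. They describe the same 6 libraries, which differ in depth and host content, and carry no test.

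Of the second set, Tgfbr2 passed a test against the markers of fibroblasts by Pearson's r only, and Tgfb3 did not pass. The 8 markers (Col1a1, Col1a2, Col3a1, Dcn, Lum, Pdgfra, Fap and Postn) were all detected, all 8 had a log2 fold change below 0 (median -0.36), and 0 of 8 passed edgeR's adjusted or unadjusted test. Their summed level was 31891, 13728 and 28887 CPM in Zelnorm tumours and 26940, 43265 and 26393 CPM in control tumours. MBZ_257 was thus the lowest tumour and NC4 the highest, with the other 4 close together. Col1a1, Col1a2 and Col3a1, which also stand in the mouse target list, made up 92.1% to 94.1% of the sum. MBZ_257 was the lowest for each of the 8 markers, but Lum was highest in MBZ_254 (378 CPM, against 325 CPM in NC4) and Fap in MBZ_259 (57.0 CPM, against 48.1 CPM in NC4). Against this sum, on log2 scales over 6 tumours, Tgfbr2 had a Pearson's r of 0.929 (exact permutation p = 0.00694, 0.0416 adjusted over 6 relations) and a Spearman's rho of 0.829 (exact permutation p = 0.0583, adjusted 0.175). Tgfb3 had an r of 0.885 (exact permutation p = 0.025, adjusted 0.075) and a rho of 0.829 (exact permutation p = 0.0583, adjusted 0.175). Both relations rested on 2 tumours: without MBZ_257 and NC4, r was 0.541 for Tgfbr2 and 0.146 for Tgfb3. Only the Pearson's r of Tgfbr2 had an adjusted exact permutation p under 0.05. For the remaining genes r was -0.612 for Tgfbr1 (adjusted exact permutation p = 0.387), -0.341 for Inhba (0.532), -0.258 for Tgfb2 (0.593) and 0.496 for Tgfb1 (0.387). Without the same 2 tumours, r over the other 4 was 0.0394 for Tgfbr1, 0.638 for Inhba, -0.0882 for Tgfb2 and 0.909 for Tgfb1. Within groups no value is given, since each holds 3 tumours.

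**Figure D2:**
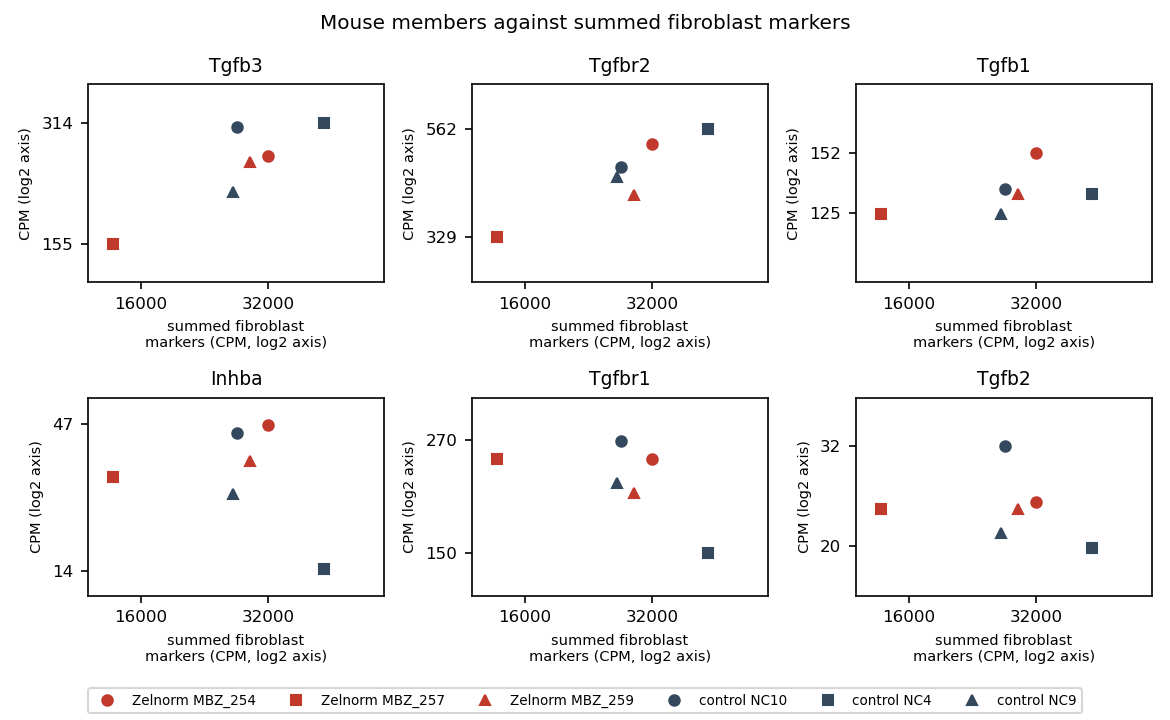
Level of each host gene (vertical, CPM on a log2 axis) against the summed level of 8 fibroblast markers (horizontal, CPM on a log2 axis), with a point per tumour. MBZ_257 at 13728 CPM and NC4 at 43265 CPM hold the ends of the horizontal axis, and Tgfb3 and Tgfbr2 are lowest and highest in the same 2 tumours, while Inhba and Tgfbr1 are lowest in NC4.

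Other host cells differed among the tumours too. Macrophage markers (7 of 7 tested) summed to 3862, 4183 and 4103 CPM in Zelnorm tumours and 3878, 3502 and 2925 CPM in control tumours. For 2 of the 7 all Zelnorm tumours lay above all control tumours, against 2.52% of all mouse genes. Skeletal muscle markers (6 of 6 tested) ranged from 69.5 to 5414 CPM in Zelnorm tumours and from 338 to 2273 CPM in control tumours. Adipocyte markers (5 of 6 tested) ranged from 83.8 to 224 CPM in Zelnorm tumours and from 199 to 577 CPM in control tumours. For 4 of the 5 all Zelnorm tumours lay below all control tumours, against 3% of all mouse genes. An unadjusted edgeR p under 0.05 with a lower level was found for 4 of the 5, against 1.03% of all mouse genes. None of these markers passed edgeR's adjusted test. The part of host cell content in the values of the host genes was not tested.

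The question of which side makes a ligand was approached by the share of its counts that fell in the human table. The share depends on how much of each library is host: of all counts, 15.1% to 23.4% fell in the mouse table in Zelnorm tumours and 19.0% to 22.3% in control tumours. More counts of TGFB2 fell in the human table than in the mouse table, and fewer of TGFB3 and INHBA, in every tumour. For TGFB2 the human share was 82.9%, 80.5% and 77.9% in Zelnorm tumours and 83.1%, 74.2% and 83.2% in control tumours, close to the human share of all counts. Scaled to the total of each table, it was 59.6%, 42.3% and 46.4% in Zelnorm tumours and 53.9%, 45.2% and 53.8% in control tumours, so 3 tumours lay above 50% and 3 below. For TGFB3 it was 13.7%, 21.7% and 18.5% in Zelnorm tumours and 16.1%, 15.9% and 17.4% in control tumours. For INHBA it was 21.0%, 33.5% and 15.5% in Zelnorm tumours and 20.5%, 24.1% and 26.1% in control tumours. MBZ_257, the tumour with the smallest mouse share of all counts, had the highest human share of both TGFB3 and INHBA. Scaled to table totals, the highest was MBZ_259 for TGFB3 (5.27%, against 4.70% in MBZ_257) and NC4 for INHBA (8.35%, against 8.21% in MBZ_257).

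Wilson 95% intervals, which cover counting error only, were 19.35% to 24.28% for TGFB3 in MBZ_257 and 12.34% to 15.12% in MBZ_254. Scaled to table totals these tumours had 4.70% (MBZ_257) and 4.61% (MBZ_254). Between the groups the mean share of TGFB2 was 80.4% ± 2.46 in Zelnorm and 80.2% ± 5.13 in control tumours (SD, n = 3 each; exact two-sided permutation p = 1). That of TGFB3 was 18.0% ± 4.05 in Zelnorm and 16.5% ± 0.807 in control tumours (exact permutation p = 0.6), and that of INHBA 23.3% ± 9.20 in Zelnorm and 23.6% ± 2.84 in control tumours (exact permutation p = 1). Adjusted over the 3 comparisons each p was 1, and 3 against 3 tumours cannot go below 0.1. The human receptor rows had shares of 40.8% to 50.9% for TGFBR1 and 43.7% to 73.9% for TGFBR2 over the 6 tumours.

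Markers of host cells were also counted in the human table, and markers of DU145 cells in the mouse table, at shares that differed by gene. The collagens of the fibroblast list had 20.9% to 23.8% (Col1a1) and 5.01% to 5.91% (Col3a1) of their counts in the human table, whereas Dcn had 0% to 0.0903%. The macrophage gene C1qa had 0%. Of 35 host markers with enough counts, 19 had a median human share under 10%. From the other side, the epithelial genes KRT8 and EPCAM had 89.8% to 90.9% (KRT8) and at least 99.96% (EPCAM) of their counts in the human table. The median human share of the host markers ran from 0% (C1qa) to 98.8% (Krt10). Nearly any share lies in that range, so it does not place TGFB3 or INHBA. The mouse share of TGFB2 was above that of KRT8. How much of a row comes from the other species, and how much from expression of the gene in both, was not tested.

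**Figure D3:**
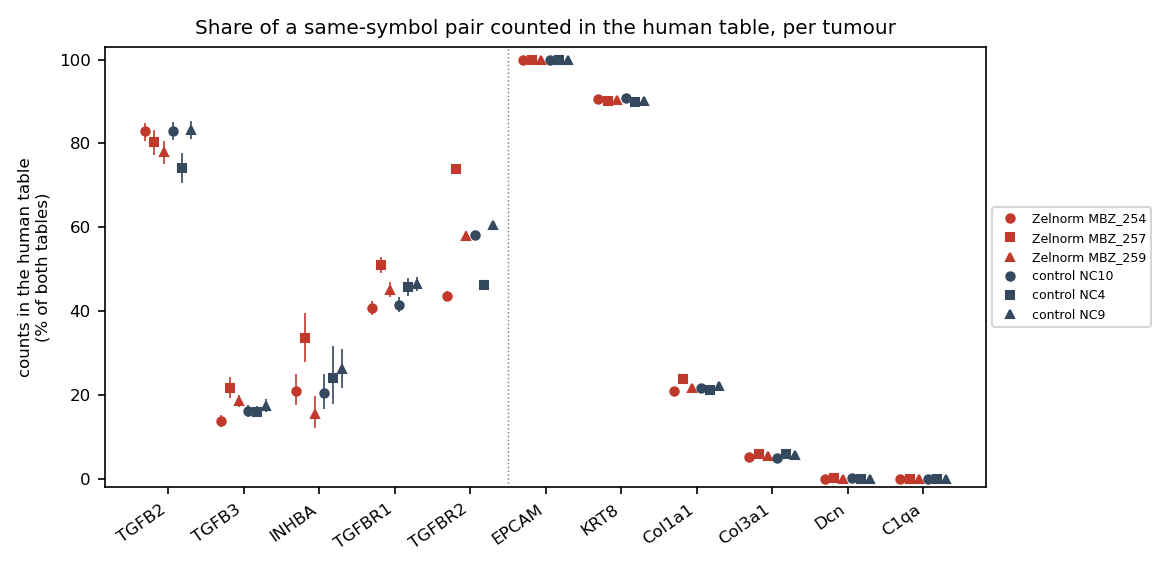
Share of the counts of a human and mouse gene of the same symbol that fell in the human table (vertical, % of both tables), with a point per tumour and Wilson 95% intervals for the 5 genes left of the dotted line. TGFB2 lies at 74.2% to 83.2% and TGFB3 at 13.7% to 21.7%, while the markers at the right (no intervals drawn) run from at least 99.96% for EPCAM through 20.9% to 23.8% for Col1a1 to 0% for C1qa.

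Human and mouse TGFB3 ranked the tumours almost alike: MBZ_257 was lowest, then NC9, with NC10 and NC4 at the top in both tables. Scaled to the total of each table, the human part of TGFB3 was 4.86% ± 0.361 in Zelnorm and 4.75% ± 0.388 in control tumours (SD, n = 3 each). Whether the 2 rows of a ligand responded differently to Zelnorm was tested with the species by treatment term over 11112 same-symbol pairs. The mouse minus human difference of log2 fold changes was 0.10 (SE 0.29) for TGFB2, -0.02 (SE 0.16) for TGFB3 and 0.15 (SE 0.32) for INHBA, each with an edgeR adjusted p of 1. No pair of the 3 was called, against 0% of all pairs, and 178 pairs (1.6%) had an unadjusted p under 0.05, none of them these 3. How many reads of a mouse gene were counted in its human row was not tested. Such reads would draw the 2 fold changes together. A difference near 0, as for TGFB3, therefore does not show that tumour and host cells responded alike.

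The rest of the pathway was read from lists chosen by role, of which the figure of list members gives every tested gene. No list member passed edgeR's adjusted test in either table. The mouse receptor list includes Tgfbr1 and Tgfbr2, and human ITGB6 and mouse Ltbp2 stand in both the latency and the target list. Over all tested genes 49.1% of human and 53.9% of mouse fold changes were above 0, with a median log2 fold change of -0.0024 in the human and 0.02 in the mouse table. An unadjusted p under 0.05 with a higher level in Zelnorm tumours was found for 0.749% of human and 0.719% of mouse genes, and with a lower level for 0.563% of human and 1.03% of mouse genes. All Zelnorm tumours lay above all control tumours for 2.52% of human and 2.52% of mouse genes, and below them for 2.31% of human and 3% of mouse genes.

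Of the other ligands, 13 of 23 were tested in the human table, with 7 above and 6 below 0 and a median log2 fold change of 0.03. The stress-induced cytokine GDF15 had 12.4, 13.0 and 22.4 CPM in Zelnorm tumours and 9.14, 15.5 and 10.5 CPM in control tumours, a log2 fold change of 0.45 (SE 0.27). GDF9, an oocyte factor, had a log2 fold change of -0.46 and INHA, the inhibin alpha chain, one of 0.20. On the mouse side 11 of 24 were tested, with 4 above and 7 below 0 and a median of -0.15. Gdf10, a BMP-like factor, had 4.32, 2.59 and 5.83 CPM in Zelnorm tumours and 6.25, 43.3 and 6.84 CPM in control tumours. All Zelnorm values lay below all control values, and NC4, the tumour with the highest fibroblast sum, stood far above the other 5. Its log2 fold change was -2.12 (SE 0.77, edgeR unadjusted p = 0.0253, adjusted 1.00). Mouse Gdf15 had few counts, 25, 11 and 7 in Zelnorm tumours and 2, 12 and 7 in control tumours. Its log2 fold change was 1.14 (SE 0.69), that of the iron-responsive ligand Bmp6 was 0.40 (SE 0.30), and the groups overlapped for both.

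Of the receptors, 14 of 15 were tested in the human table, with 7 above and 7 below 0 and a median of 0.01. TGFBR2 had a mean of 140 ± 13.7 CPM in Zelnorm and 151 ± 6.52 CPM in control tumours (SD, n = 3 each), a log2 fold change of -0.11 (SE 0.11). The activin receptor ACVR2A had a log2 fold change of 0.18 (SE 0.19). ACVR1C, the nodal receptor ALK7, was the single human receptor whose groups did not overlap, at 0.976, 0.865 and 0.941 CPM in Zelnorm tumours and 0.721, 0.734 and 0.828 CPM in control tumours. On the mouse side 12 of 15 were tested, with 7 above and 5 below 0 and a median of 0.03. The BMP receptor Bmpr1b had 5.34, 3.89 and 4.91 CPM in Zelnorm tumours and 3.69, 3.24 and 3.04 CPM in control tumours, without overlap, and a log2 fold change of 0.51 (SE 0.30). The co-receptor Tgfbr3 had a log2 fold change of -0.48 (SE 0.43).

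All 18 genes of the SMADs and their regulators were tested in both tables, with 9 above and 9 below 0 in the human table (median -0.0018) and 11 above and 7 below in the mouse table (median 0.08). The SMAD corepressor TGIF1 had 66.5, 72.1 and 83.7 CPM in Zelnorm tumours and 65.2, 65.7 and 56.0 CPM in control tumours. All Zelnorm tumours lay above the control tumours, the closest by little, and the log2 fold change was 0.25 (SE 0.13, edgeR unadjusted p = 0.0725, adjusted 1.00). Mouse Tgif1 had a log2 fold change of 0.31 (SE 0.16), with overlap between the groups. Its relative Tgif2 had -0.53 (SE 0.35), with all Zelnorm tumours below all control tumours. The remaining genes with the smallest p were human SKI (-0.11), human ZFYVE9, an anchor for SMADs (0.09), and mouse Skil (0.30).

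Genes of latency and activation mostly had fold changes below 0: 15 of 18 tested in the human table (median -0.06) and 14 of 19 in the mouse table (median -0.10), of 21 in each list. Without MBZ_257 the median was 0.09 in the human and 0.10 in the mouse table. Mouse Ltbp1, which ties latent TGF-beta to the matrix, had 49.9, 34.0 and 50.1 CPM in Zelnorm tumours and 56.8, 82.2 and 65.2 CPM in control tumours. All Zelnorm tumours lay below all control tumours, with MBZ_257 lowest and NC4 highest, as in the fibroblast sum. Its log2 fold change was -0.60 (SE 0.21, edgeR unadjusted p = 0.0207, adjusted 1.00). Ltbp3 (-0.32, SE 0.20) and Lrrc32, which holds latent TGF-beta on cell surfaces (-0.30, SE 0.18), had overlapping groups. In the human table LTBP3 (-0.22), the TGF-beta activating integrin chain ITGB8 (-0.39) and the protease MMP2 (-0.42) had the smallest p of their list, none of them under 0.05 unadjusted.

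Of the secreted inhibitors and the pseudoreceptor BAMBI, 11 of 16 were tested in the human table (3 above and 8 below 0, median -0.08) and 13 of 16 in the mouse table (5 above and 8 below, median -0.14). Both signs rested on single libraries: the human median was 0.02 without MBZ_257 and 0.05 without NC4, and the mouse median was 0.0046 without MBZ_257. Chrdl1, a secreted BMP antagonist, had 36.6, 13.9 and 23.7 CPM in Zelnorm tumours and 59.5, 57.0 and 28.0 CPM in control tumours, a log2 fold change of -0.95 (SE 0.39, edgeR unadjusted p = 0.041, adjusted 1.00) with overlap. The matrix protein Aspn, a binder of TGF-beta, had 145, 72.2 and 181 CPM in Zelnorm tumours and 225, 180 and 221 CPM in control tumours. Human ASPN had 6.75, 1.88 and 7.25 CPM in Zelnorm tumours and 8.69, 8.15 and 9.44 CPM in control tumours. MBZ_257 was the lowest tumour for ASPN in both tables. The human row had 166, 61 and 262 counts in Zelnorm tumours and 229, 211 and 376 in control tumours. The mouse row had 1138, 390 and 1580 counts in Zelnorm tumours and 1401, 1385 and 2036 in control tumours. How much of the human row comes from mouse reads was not tested, so the 2 rows may not be separate observations. Log2 fold changes were -0.65 (SE 0.31) for Aspn and -0.73 (SE 0.39) for ASPN. BAMBI (-0.44), FSTL1 (-0.19) and mouse Wfikkn2 (-0.91, SE 0.56) had overlapping groups. Wfikkn2 had few counts, 5 to 23 per library.

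Among genes known to respond to TGF-beta or its relatives, 20 of 26 tested human genes lay above 0 and 6 below, with a median log2 fold change of 0.20. Among mouse genes 12 of 30 lay above and 18 below, with a median of -0.10. The human median was 0.10 without MBZ_254 and 0.31 without MBZ_257, and the mouse median was 0.08 without MBZ_257. Human CDKN1A, the cell cycle inhibitor p21, had 50.3, 45.8 and 65.4 CPM in Zelnorm tumours and 39.6, 41.6 and 38.4 CPM in control tumours. All Zelnorm tumours lay above all control tumours, and the log2 fold change was 0.43 (SE 0.14, edgeR unadjusted p = 0.0129, adjusted 1.00). TAGLN, an actin-binding protein of contractile cells, had 60.0, 38.5 and 38.6 CPM in Zelnorm tumours and 34.0, 32.3 and 30.2 CPM in control tumours, without overlap. Its log2 fold change was 0.51 (SE 0.18, edgeR unadjusted p = 0.0171, adjusted 1.00). Of the counts of this gene over both tables, 34.0% to 50.2% fell in the human table. ID3, a target of BMP signals, had 77.9, 78.0 and 96.5 CPM in Zelnorm tumours and 61.4, 68.2 and 76.6 CPM in control tumours, also without overlap, a log2 fold change of 0.29 (SE 0.13).

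In the mouse table Tagln had 285, 228 and 253 CPM in Zelnorm tumours and 215, 210 and 184 CPM in control tumours, and the protease inhibitor Timp1 had 118, 102 and 156 CPM in Zelnorm tumours and 90.8, 88.5 and 100.3 CPM in control tumours. Both were without overlap, and the log2 fold change was 0.33 (SE 0.16) for Tagln and 0.42 (SE 0.19) for Timp1. Elastin, Eln, had 202, 85.1 and 352 CPM in Zelnorm tumours and 297, 808 and 307 CPM in control tumours, again with MBZ_257 lowest and NC4 highest.

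**Figure D4:**
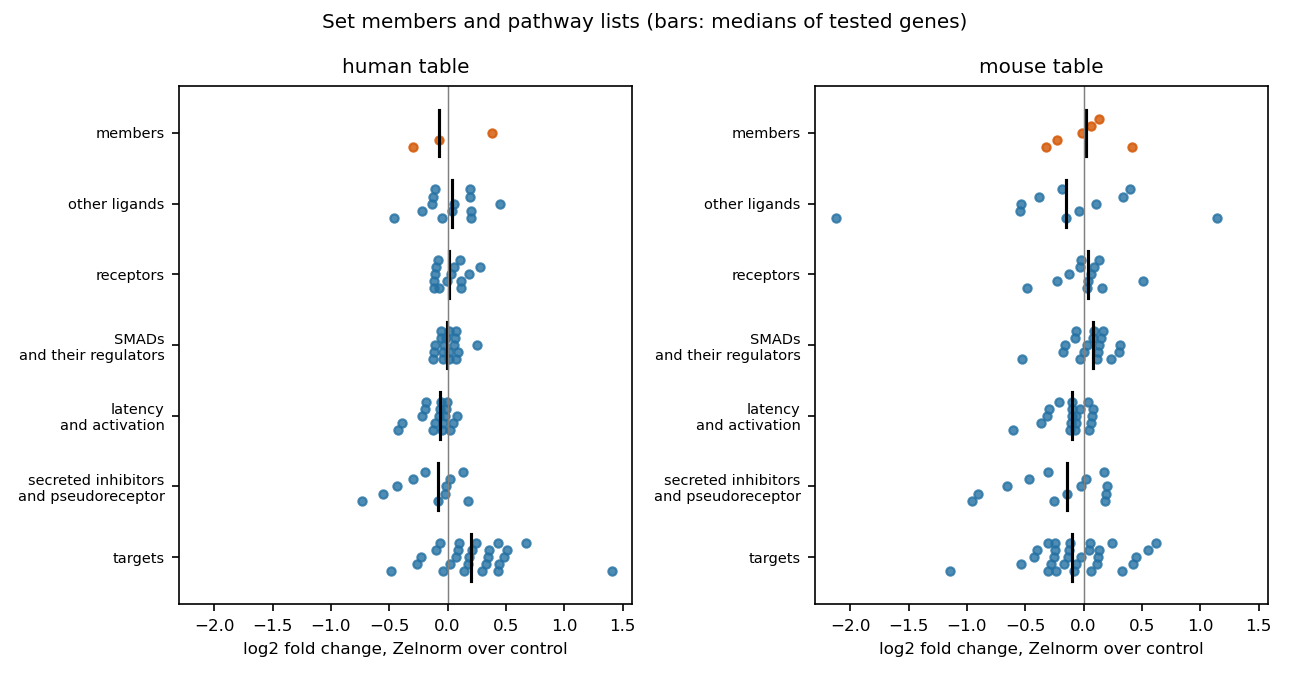
Log2 fold changes (horizontal, Zelnorm over control) of every tested gene of the set and of 6 pathway lists (rows), in the human table at the left and the mouse table at the right, with black bars for medians. Human targets have a median of 0.20 (0.10 without MBZ_254) and mouse targets of -0.10 (0.08 without MBZ_257), and mouse Gdf10 lies farthest from 0 at -2.12.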

How the data were processed

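Total RNA of 6 DU145 tumours was sequenced with TruSeq libraries, per the labels' protocols. The authors deposited estimated counts for each gene of a human and a mouse table; 38% of human and 27% of mouse values above 0 were not whole. HISAT2, StringTie, DESeq2 and edgeR with GRCh38 and GRCm38 are named, per the submitters' processing notes, without roles; those sources do not say how reads were divided between the species. Columns carry a group prefix and a number found in no label, so libraries are tied to a group only. Rows without a gene name (574 of 59458 human, 856 of 56392 mouse) stayed out and held 0.407% to 0.518% of human and 0.317% to 0.468% of mouse counts.

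The tests had been planned for whole counts, so the estimated counts were rounded. Zelnorm was compared with control in edgeR 4.0.16 (R 4.3.3; quasi-likelihood test, two-sided, filterByExpr, TMM factors 0.974 to 1.03 in the human and 0.934 to 1.06 in the mouse table), with Benjamini-Hochberg adjustment over all genes of a table and a threshold of 0.05. The SE comes from the F statistic. Pairs of the same symbol were fitted together with the library as a block. Correlations between genes used log2 CPM with a prior count of 2, and those with the fibroblast sum used log2 CPM without a prior count. Simulated tables with known changes gave back 96% of human and 89% of mouse genes changed by 1 on the log2 scale. For the species by treatment term 45.5% of pairs were given back. Every simulated gene had the same spread beyond counting error, and only genes above a minimum level were changed. These shares therefore do not say how many real changes of that size would be found, least of all for genes with few counts. DESeq2 1.42.0, limma-voom (limma 3.58.1), another scaling, no count filter and leaving out each library were tried as alternatives. Mouse positions and lengths come from GENCODE vM21 (GRCm38), promoters from RefSeq.

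The genes, lists and rules were chosen with earlier results of these data known. Named are all genes of the set, per pathway list and table the 3 tested genes with the smallest p, and per ligand the 3 genes most like it in level among those with a mean CPM of at least 10. A share was planned for 4 ligands and could be formed for 3. The sum of TGFB2 with TGFB2-OT1 and the fit without NC4 and MBZ_257 were added after seeing the data. Results of some genes are not reported here.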

Additional observations from a re-analysis of the deposited data

How the results depend on the processing

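None of the 9 genes passed the adjusted threshold under any alternative run; the smallest adjusted p was 0.75 (Tgfbr2). Leaving out each library in turn gave log2 fold changes of -0.51 to 0.27 for TGFB2, -0.47 to -0.05 for TGFB3, -0.0052 to 0.66 for INHBA, -0.034 to 0.14 for Tgfb1, -0.14 to 0.21 for Tgfb2, -0.49 to -0.11 for Tgfb3, 0.10 to 0.86 for Inhba, -0.070 to 0.33 for Tgfbr1 and -0.43 to -0.06 for Tgfbr2. With limma-voom Tgfb2 was 0.033, and without NC4 and MBZ_257 TGFB3 was 0.16, Tgfbr1 -0.093 and Tgfbr2 0.048; the cause was not tested. The mouse minus human difference ran from -0.12 to 0.44 for TGFB2, -0.11 to 0.042 for TGFB3 and -0.14 to 0.33 for INHBA when libraries were left out, and the difference of human shares (percentage points, Zelnorm minus control) from -2.71 to 1.77 for TGFB2, -0.39 to 3.63 for TGFB3 and -5.28 to 3.69 for INHBA. With counts scaled to their table's total the TGFB2 difference was -1.54. Without a count filter 61 human genes (42 higher, 19 lower) and 2 mouse genes passed, among them 1 gene of the human target list, and DESeq2 called 1 human and 6 mouse genes. Of the 9 genes, INHBA had the fewest counts (35 to 98 per library). The median of the pathway lists changed sign when MBZ_257 was left out for latency and inhibitors in both tables, for human receptors and SMADs and for mouse targets; other single libraries turned the medians of human other ligands and mouse receptors. No paired analysis was possible because the columns carry no replicate number of the labels.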

Other observations

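The human row with the identifier ENSG00000105329 is named AC011462.1 in the deposited table, and no human annotation was used here to say which gene it holds, so it was not counted as TGFB1. It had 31.5, 23.8 and 31.4 CPM in Zelnorm tumours and 21.7, 39.9 and 36.7 CPM in control tumours. The groups overlapped, and the log2 fold change was -0.18 (SE 0.22, edgeR adjusted p = 1.00).

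The genes whose level was most like that of each ligand over the 6 tumours were found among 10283 to 10284 human or 9286 mouse genes. They were STX16, RYK and RAP1A for TGFB2 (Pearson's r of log2 CPM 0.996 to 0.997), EDC3, PPCDC and FBXO21 for TGFB3 (0.984 to 0.989) and TSN, LRRC37B and NBPF8 for INHBA (0.978 to 0.985). On the host side they were Smim14, Snapc4 and Acp2 for Tgfb1 (0.989 to 0.992), Prkce, Prkcb and Pgam5 for Tgfb2 (0.979 to 0.986), Cyb5b, Bnc2 and Raly for Tgfb3 (0.989 to 0.993) and Mosmo, Zfp654 and Zbtb6 for Inhba (0.985 to 0.995). Each r is among the highest of that many values over 6 libraries and is given as a description.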
